A study of Mus musculus with 2 samples.

Results

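The data described here are the levels of 10 genes of glucose breakdown in single CD4 T cells: Slc2a1, Hk2, Aldoa, Tpi1, Gapdh, Pgk1, Eno1, Pkm, Ldha and Pdk1. They were taken by symbol from the 35976 gene rows of the deposited count tables, and all 10 had a row. The T cells carried OTII, a transgenic receptor that recognises ovalbumin, and had been given to host mice. They were sorted from spleen on day 7 after CAS (an abbreviation that the labels leave unexplained) and a second priming, as propidium iodide negative, Vb5.1-5.2+, CD4+ cells. The gate as labelled uses no congenic marker, and CD4 T cells of the host that bear Vb5 could pass it too. The control pool came from 2 C57BL/6 hosts and the deleted pool from 3 IL13Ra1f/f, CD11cCre/+ hosts. The Cre, driven by CD11c, works chiefly in dendritic cells, and the design text places the deletion in the hosts, not in the transferred T cells. Their ages were not given in the sources used here. Each pool was 1 pooled sample spread over 4 plates with 92 cells each, and the animals of a pool cannot be told apart.

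Glycolysis turns glucose into pyruvate in the cytosol, and each step has its own enzyme. Pyruvate can then be reduced to lactate by lactate dehydrogenase or enter the mitochondrion through pyruvate dehydrogenase, which pyruvate dehydrogenase kinases switch off. T cells are known to raise glucose uptake and lactate production when they are activated, and several genes of this route are textbook targets of the transcription factors HIF-1 and MYC.

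Each cell was lysed in its own well and its mRNA was read over the full length by SmartSeq2. The control pool held 573105030 reads in genes and the deleted pool 542650671, with medians of 1592790 and 1499760 reads per cell. Levels are given as counts per 1000000 reads in genes (CPM), from reads summed over the cells of a plate or pool. All 7 measured markers of CD4 T cells reached 5 CPM, and their sum lay between 3981 and 4813 CPM on the 8 plates. Of the 2 markers of CD8 T cells, the 5 of B cells, the 3 of plasma cells, the 6 of myeloid cells, the 4 of dendritic cells, the 3 of NK cells and the 4 of erythroid cells, 1 in each list reached 5 CPM. The plasma cell list had the highest sum of these, at 112 CPM in the control pool and 118 CPM in the deleted pool. The sum of 6 activation markers was 711 CPM in the control pool (511 to 950 by plate) and 1125 CPM in the deleted pool (970 to 1250), and that of 3 regulatory T cell markers was 99.9 and 151 CPM. The 6 cycling markers summed to 29.9 CPM (26.4 to 39.9) and 61.8 CPM (17.8 to 109). The part of these differences in the levels below was not tested. With 1 sample per pool there is no test between pools and no p-value is given, and the spread between plates is technical.

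The counts of several of these genes depend on how reads with more than 1 possible origin were treated, which neither labels nor headers state. Retrotransposed copies of glycolysis mRNAs are common in the mouse genome. In the GENCODE M21 transcripts of GRCm38 (the build also called mm10), 82.5% of the 50-base windows of the Gapdh transcript occurred letter for letter in 222 other genes, of which 213 were annotated as processed pseudogenes. The shares were 72.2% for Eno1 (9 other genes), 68.0% for Pgk1 (5), 34.4% for Pkm (8), 16.6% for Ldha (14), 13.5% for Aldoa (6), 7.51% for Tpi1 (2) and 1.74% for Slc2a1 (1). Hk2 and Pdk1 shared no window with another gene. The following 60-base coding stretches show the range of this likeness, from identical letters to 2 differences. Capitals mark the positions at which member and copy differ, and positions are counted from 1 at the 5′ end of the stretch.
Gapdh, coding bases 301 to 360: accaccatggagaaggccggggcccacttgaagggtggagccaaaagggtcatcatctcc
Gm7336, a processed copy of Gapdh: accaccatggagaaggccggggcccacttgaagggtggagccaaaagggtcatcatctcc
Eno1, coding bases 721 to 780: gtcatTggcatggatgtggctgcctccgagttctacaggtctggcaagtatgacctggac
Gm4735, a processed copy of Eno1: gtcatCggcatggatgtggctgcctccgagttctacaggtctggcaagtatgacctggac
Ldha, coding bases 421 to 480: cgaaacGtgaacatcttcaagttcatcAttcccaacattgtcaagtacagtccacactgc
Gm5452, a processed copy of Ldha: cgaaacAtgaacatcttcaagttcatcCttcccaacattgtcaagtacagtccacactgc
The Gapdh stretch was the same in 40 other genes. The Eno1 stretch differed from that of Gm4735 by T6C, and the Ldha stretch from that of Gm5452 by G7A and A28C. Gm7336, Gm4735 and Gm5452 are annotated on chromosomes 7, 2 and 13.

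Few of these copies had a row of their own in the count tables. The Eno1 retrogene Eno1b, which shares 70.5% of the Eno1 windows, was counted at 51.5 CPM in the control pool and 53.6 CPM in the deleted pool. On each plate it held 4.40% to 5.31% of the Eno1 level, and across the 92 cells of a plate its CPM followed that of Eno1 with a Spearman correlation of 0.885 to 0.930. These points share their libraries, and reads of the pair could be split between them. Gm12070, a Gapdh copy with 65.9% of its windows, was counted at 2.49 and 2.52 CPM.

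Per length of exons, Ldha, Pkm, Eno1 and Aldoa were the most abundant of the group. The scale for all comparisons between genes is CPM per kilobase of the joined exons of a gene's protein-coding transcripts. On it Ldha, which makes lactate, stood at 741 in the control pool and 757 in the deleted pool. Pkm, the pyruvate kinase that ends glycolysis, stood at 444 and 463, Eno1, the enolase before it, at 405 and 455, and Aldoa, the aldolase that splits fructose bisphosphate, at 289 and 263. Then came Pgk1, the first ATP-making kinase of the route, at 66.2 and 79.4. Pdk1, a kinase that inhibits pyruvate dehydrogenase, stood at 39.0 and 24.2 and Tpi1, the triose phosphate isomerase, at 33.2 and 48.0. Slc2a1, the glucose transporter GLUT1, followed at 20.1 and 13.1. Gapdh, the dehydrogenase that makes NADH, was counted at 3.39 and 5.77, and the inducible hexokinase Hk2 at 0.0581 and 0.163. The plates of Pkm and Eno1 overlapped in both pools, so their order is not settled. It also depends on the length used. The joined exons hold 2599 bases for Pkm and 2546 for Eno1, and their longest coding transcripts 2432 and 2027. The plates of Pdk1, Tpi1 and Slc2a1 also overlapped as neighbours in the control pool, as did those of Pgk1 and Tpi1, Pdk1 and Slc2a1, and Slc2a1 and Gapdh in the deleted pool. Ldha lay above every other gene of the group on every plate of its pool.

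**Figure D1:**
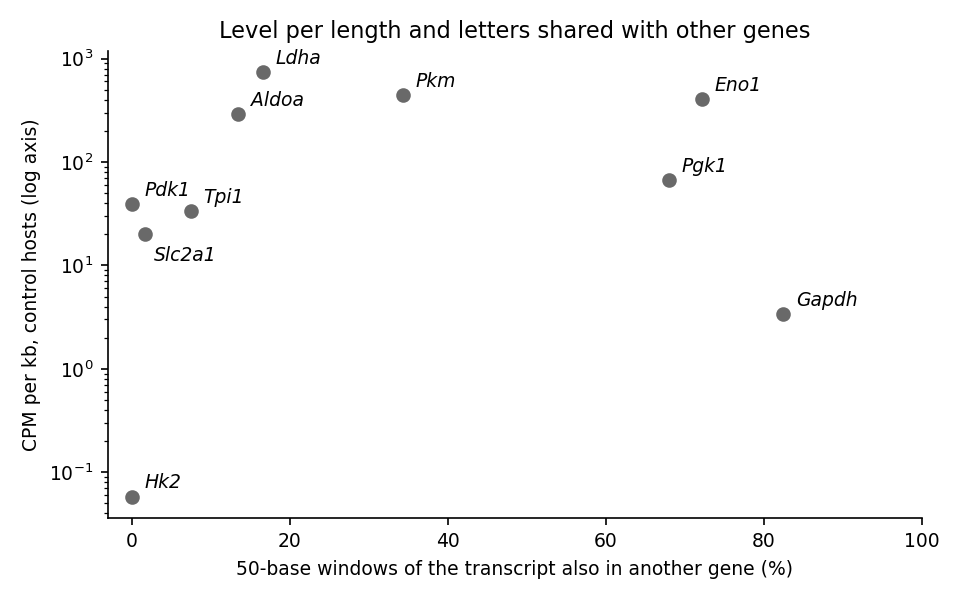
Level per length of joined exons in the control pool (CPM per kilobase, log axis) against the share of 50-base windows that also occur in another gene (percent), 1 point per gene. Gapdh combined the highest share, 82.5%, with a level of 3.39, while Eno1 at 72.2% stood at 405 and Hk2 at 0 stood lowest.

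The low count of Gapdh, a gene that most cells use, was not confined to the sorted T cells. Control wells with names ending in mBM10 and mBM100, which were not part of either pool, gave 0.569 and 8.98 CPM of Gapdh over 13 and 10 wells. In the same wells Tpi1 stood at 254 and 282 CPM and Aldoa at 881 and 1143 CPM. The part of the shared letters in this count was not tested, and the Gapdh values below are those of the row. The same holds for the Eno1, Pgk1 and Pkm rows.

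The share of positive cells separated the genes into 3 groups. Positive cells held at least 10 CPM of a gene, provided that this was 5% or more of the plate's mean for that gene, and the 95% intervals (Clopper-Pearson) cover counting error of cells only. Ldha was positive in 74.2% of control cells (69.4 to 78.6) and 72.0% of deleted-pool cells (67.1 to 76.5). Pkm was positive in 71.2% and 72.6%, and Eno1 in 70.4% and 68.5%, so these 3 mRNAs were found in most cells. Aldoa was positive in 54.6% of control cells (49.4 to 59.8) and 42.1% of deleted-pool cells (37.0 to 47.3). The plates overlapped, with 47.8% to 65.2% in the control pool and 34.8% to 52.2% in the deleted pool. After thinning each cell to 100000 reads, which dropped 2 shallower wells of the deleted pool, Aldoa stood at 55.4% and 43.4%.

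The other genes were positive in a minority of cells. Pdk1 was positive in 23.6% (19.4 to 28.3) and 16.6% (12.9 to 20.8), Pgk1 in 14.9% and 18.5%, Tpi1 in 8.15% and 12.8%, and Slc2a1 in 7.34% and 7.07%. Gapdh was positive in 3.53% and 4.08%, or 13 and 15 cells, and in 11.4% and 14.1% when 1 CPM was enough. Hk2 was positive in 3 cells of 368 in the control pool and in 1 of 368 in the deleted pool. That 1 cell held 91.3% of the 496 Hk2 reads of its pool, so Hk2 was at the limit of detection and is given below only where it stands apart.

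For the rarer genes the level rested on few cells with many reads. The median positive control cell held 725 CPM of Pgk1, 726 of Tpi1, 841 of Slc2a1 and 660 of Pdk1, while the median over all control cells was 0.962 CPM or less for each. The 37 highest of the 368 control cells held 99.2% of the Tpi1 reads, 99.7% of the Slc2a1 reads and 86.4% of the Pgk1 reads. For Ldha, Pkm and Eno1 the 37 highest cells held 32.0%, 31.9% and 32.9%. In 9 wells without a cell (noinput and dw, 6698 to 12348 reads), the medians were 10 reads of Ldha, 9 of Pkm, 7 of Eno1 and 4 of Aldoa, and the other 6 genes had medians of 0 to 2. Set against the median depth of a cell these would be 6.53 CPM of Ldha and 5.88 CPM of Pkm, below the level of a positive cell.

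**Figure D2:**
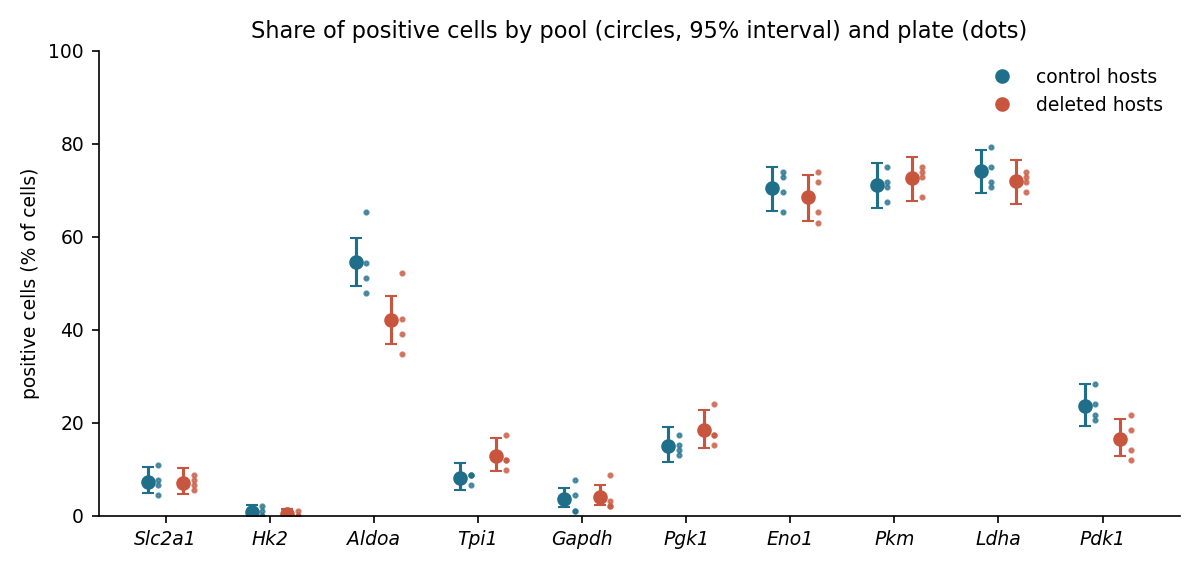
Positive cells as a percent of the 368 cells of each pool, by gene in pathway order. Circles are pools with Clopper-Pearson 95% intervals and dots are the 4 plates. Eno1, Pkm and Ldha lie near 70%, and the Aldoa intervals of the pools do not overlap although their plates do.

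Most cells were positive for only a few of the members. A control cell was positive for a mean of 3.29 of the 10 genes and a deleted-pool cell for 3.14, with plate means of 3.15 to 3.41 and 2.97 to 3.37. The median was 3 in both pools and no cell was positive for more than 7. Across the cells of a plate, the mean Spearman correlation of the 45 pairs of genes ran from -0.09 to 0.11 with a median of 0.02, which in counts this sparse is no finding. In most pairs, but not in all, more cells were positive for both genes than independent calls would give. Aldoa and Tpi1 were both positive in 53 cells, beside 36.3 expected, and Aldoa and Pdk1 in 64, beside 73.3. Whether these counts exceed counting error was not tested. By the rule of mean correlation over the 8 plates, the genes most like the sum of the 10 were Rps2 (0.19), Actb (0.18), Pfn1 (0.18), Ppia (0.17) and Tuba1c (0.17), followed by Hsp90ab1, Hspa8, Prkar1a, Cd52 and Cfl1. These were chosen from 2036 candidates whose median was 0.01, and all share library and depth with the sum.

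**Figure D3:**
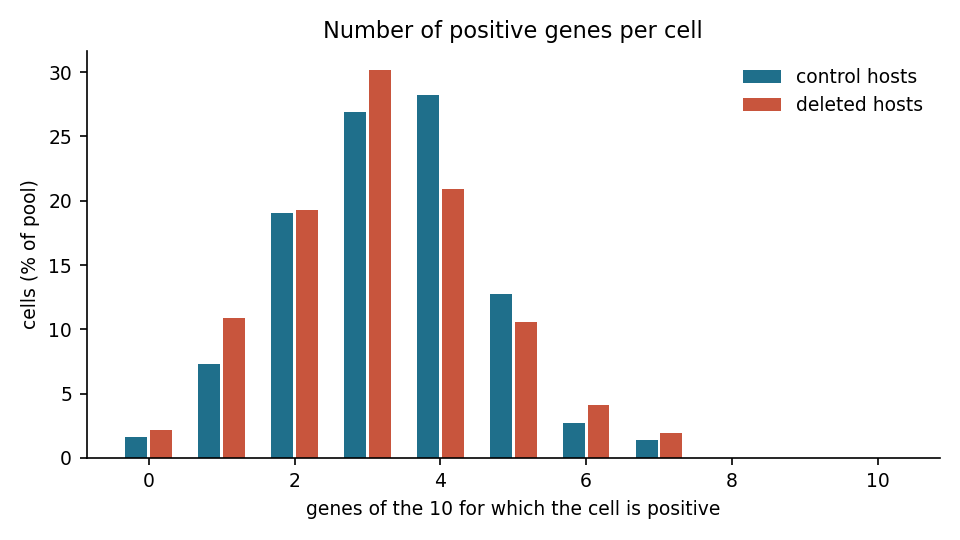
Share of cells (percent of the pool) by the number of the 10 genes for which the cell was positive. Most cells were positive for 2 to 4 genes, and no cell for more than 7.

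Between hosts, the genes of the main trunk differed little and Pdk1 was lower in the deleted pool on every plate. Ratios are log2 of (CPM in the deleted pool + 1) over (CPM in the control pool + 1), which understates the change of low genes. Of the 10 genes 9 reached 5 CPM in either pool. None of the 9 was 2-fold higher and none 2-fold lower, where 5.98% and 6.71% of the 9764 genes tested were. Their median log2 ratio was 0.06, beside -0.04 over all genes tested. In bulk sums, fewer cells with an mRNA and less of it per cell cannot be told apart, which is why shares of cells stand beside the levels.

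Pdk1 (chr2:71873224-71903858, plus strand, GRCm38) was counted at 208, 230, 162 and 210 CPM on control plates 1 to 4 and at 158, 144, 89.3 and 115 CPM on deleted plates 1 to 4. Every deleted plate lay below every control plate, with 158 against 162 CPM as the nearest pair. Over the pools this was 202 against 126 CPM, a log2 ratio of -0.68. Such a separation in this direction was seen in 2.6% of the genes tested, and Pdk1 was the only one of the 9 in which the plates did not overlap. The ratio ran from -0.80 to -0.55 when 1 plate was left out and from -0.70 to -0.38 over the other settings. The separation of plates was judged on summed reads only. In these, 1 well of deleted plate 1 with 8548 CPM of Pdk1 has little weight, since it held 71129 reads. After thinning, Pdk1 was positive in 25.8% of control cells and 21.6% of deleted-pool cells. Of the other pyruvate dehydrogenase kinases, Pdk3 stood at 54.7 CPM in the control pool and 59.5 in the deleted pool, with a log2 ratio of 0.12. Pdk2 stood at 15.3 and 26.0 CPM (0.73), with overlapping plates of 0.283 to 31.7 and 1.63 to 41.7 CPM.

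Slc2a1 (chr4:119108711-119137983, plus strand) was counted at 46.1, 72.5, 54.6 and 88.7 CPM on control plates 1 to 4 and at 61.8, 46.1, 29.2 and 35.6 CPM on the deleted plates. The ratio was -0.61 and the plates overlapped. Tpi1 (chr6:124810586-124814296, minus strand) was counted at 86.2, 41.4, 65.0 and 41.4 CPM against 60.0, 72.7, 118 and 85.4 CPM, a ratio of 0.53 with overlapping plates. Gapdh (chr6:125161715-125166467, minus strand) stood at 5.07 and 8.63 CPM with a ratio of 0.67, and deleted plate 2 alone held 20.5 CPM. Without that plate the Gapdh ratio was -0.10.

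The abundant enzymes were near even. Ldha (chr7:46841475-46855627, plus strand) was counted at 1627, 1241, 1377 and 1365 CPM on the control plates and at 1396, 1492, 1490 and 1360 CPM on the deleted plates, with a ratio of 0.03. Pkm (chr9:59656368-59679375, plus strand) ran from 1112 to 1223 CPM in the control pool and from 1038 to 1279 in the deleted pool (ratio 0.06). Eno1 (chr4:150236721-150248879, plus strand) ran from 886 to 1121 and from 1079 to 1248 CPM (0.17). Aldoa (chr7:126795234-126800751, minus strand) ran from 485 to 631 and from 390 to 642 CPM (-0.14), a smaller difference than that in its share of positive cells. Pgk1 (chrX:106187100-106203699, plus strand) ran from 93.2 to 150 and from 117 to 187 CPM (0.26). Hk2 (chr6:82725025-82774454, minus strand) did not exceed 3.47 CPM on any plate.

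**Figure D4:**
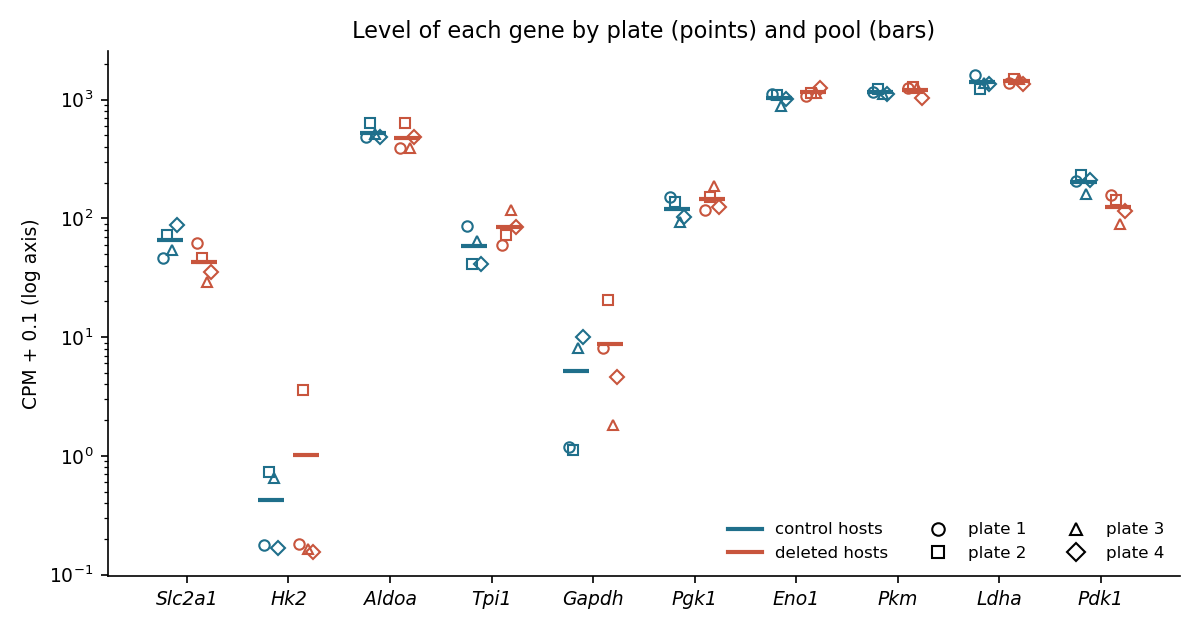
Level of each gene in pathway order, as CPM + 0.1 on a log axis. Symbols are the 4 plates of each pool and bars the pool values. Pdk1 is the only gene whose plates do not overlap between pools, and Hk2 and Gapdh are the lowest rows.

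The rest of the pathway showed no common shift either. Of 26 other genes of glycolysis and glucose transport, 17 were measured, with 3 at least 2-fold higher (Gapdhs, Eno2 and Tigar) and 1 lower (Aldoc) and a median log2 ratio of -0.07. These 4 genes lay below 10 CPM in both pools and were named after their values were seen. Of 19 genes of pyruvate and lactate handling, 16 were measured and only Slc16a3, a lactate exporter, was 2-fold lower, at 7.35 CPM in the control pool and 1.87 CPM in the deleted pool, with overlapping plates (0.153 to 18.8 and 0.0486 to 7.69 CPM). None of the 6 measured genes of the pentose phosphate branch passed 2-fold. Among 13 measured regulators only Arnt, the partner of HIF-1 alpha, passed it, at 60.7 CPM in the control pool and 28.2 in the deleted pool (-1.08). Over all 52 measured pathway genes outside the 10, 3 were at least 2-fold higher and 3 lower. Of all genes tested, 5.98% and 6.71% were, and the counts of pathway genes lie near these shares. Hif1a stood at 257 and 276 CPM and Myc at 96.3 and 87.9 CPM. The glycolytic genes Gpi1, Pfkp and Pgam1 and the glucose transporter gene Slc2a3 had ratios of 0.09, -0.14, -0.19 and -0.14. Ldhb, the heart type lactate dehydrogenase, was counted at 43.3 to 77.9 CPM on the control plates and at 91.1 to 114 CPM on the deleted plates, and every deleted plate lay above every control plate (52.6 against 99.1 CPM, ratio 0.90). Such a separation was seen in 1.81% of the genes tested.

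The next comparison asked how the 10 genes stood in cells with Tnfrsf9 mRNA, which encodes the activation receptor 4-1BB. By the same rule of 10 CPM, 46 control cells and 64 deleted-pool cells were Tnfrsf9-positive, and the ratio compared them with the other cells of the same pool. Cells are not replicates, so the check is whether the 4 plates of a pool moved the same way. Tnfrsf9-positive cells had more genes with at least 5 reads, with medians of 1635 against 1559.5 in the control pool and 1778.5 against 1501.5 in the deleted pool. Their sum of 3 regulatory T cell markers was 307 against 70.3 CPM in the control pool and 190 against 142 CPM in the deleted pool. All 3 of these markers were higher in the control pool, but only 1 of the 3 in the deleted pool. Cycling markers summed to 28.6 against 30.1 and to 128 against 46.4 CPM. In the positive cells these sums ran by plate from 0.707 to 112 CPM (control) and from 1.03 to 496 CPM (deleted). In the others they ran from 29.7 to 30.8 and from 15.6 to 113 CPM. Only 16 cells were positive for both Tnfrsf9 and Cd44. The part of these differences in the ratios was not tested.

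Tpi1 was higher in Tnfrsf9-positive cells on all 8 plates, as was Pkm by less. The count of genes higher on all 8 plates was 0.641% of those tested. In the control pool Tpi1 stood at 154, 108, 87.2 and 41.5 CPM in positive cells of plates 1 to 4 and at 73.9, 32.9, 62.1 and 41.4 CPM in the others, so plate 4 was level. On the deleted plates it stood at 146, 111, 277 and 278 CPM against 39.4, 63.4, 76.8 and 48.1 CPM. The pool ratios were 0.93 and 1.82 on the log2 scale. When cells were thinned to 100000 reads and called again, the control ratio fell to 0.11, while over the alternatives the deleted-pool ratio ran from 1.63 to 2.12. Among control cells, Tpi1 was positive in 6 of 46 Tnfrsf9-positive cells and in 24 of 322 others, with overlapping intervals. The directions of the control plates thus rest on few Tpi1-positive cells. Tpi1 was positive in 28.1% of Tnfrsf9-positive deleted-pool cells (17.6 to 40.8) and in 9.54% of the others (6.48 to 13.4). The 28.1% includes 2 shallow wells, of 71129 and 9905 reads, that were called on 1 and 2 Tpi1 reads. Over both pools after thinning the shares were 25.0% and 12.5%. The direction held on all 8 plates without Foxp3-positive cells and without cells positive for a cycling marker.

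Pkm had ratios of 0.34 and 0.26. On deleted plates 2 and 4 the positive and other cells differed by 1281 against 1278 and 1039 against 1037 CPM, and without Foxp3-positive cells, or without cycling cells, Pkm was higher on 7 plates. Pgk1 was positive in 30.4% of Tnfrsf9-positive control cells (17.7 to 45.8) against 12.7% of the others (9.30 to 16.9), and in 29.7% against 16.1% in the deleted pool. After thinning the shares over both pools were 37.0% and 17.7%. The Pgk1 level did not follow on each plate: it was higher on 3 of 4 control plates and 2 of 4 deleted plates, with ratios of 1.41 and 0.57. The control ratio was 0.90 without control plate 1 and 0.88 after thinning.

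Eno1 and Ldha went opposite ways in the pools. Eno1 stood at 731, 1021, 433 and 654 CPM in Tnfrsf9-positive control cells and at 1191, 1113, 945 and 1064 CPM in the others. On the deleted plates it stood at 1189, 1456, 1334 and 1372 CPM against 1052, 1072, 1097 and 1224 CPM. It was thus lower on all 4 control plates and higher on all 4 deleted plates, with ratios of -0.61 and 0.26. Ldha was likewise lower on the 4 control plates (-0.20) and higher on the 4 deleted plates (0.54). Of the genes tested, 16.7% were lower on all 4 control plates and 5.79% higher on all 4 deleted plates. The share of genes with all plates of a pool one way and all of the other the opposite way was 0.55%. For Ldha the direction in the control pool rests on the scaling: with TMM factors its ratio was 0.01 and with median-of-ratios factors 0.31. It was also higher on 2 of the 4 control plates without Foxp3-positive cells and on 1 of 4 without cycling cells. Eno1 kept the sign of its pool ratios under those settings, with control ratios of -0.68 to -0.11 over the alternatives. Its plate directions held without Foxp3-positive cells and without cycling cells, but were not computed under the other scalings. On control plate 2 its ratio was only -0.12, while TMM and median-of-ratios scaling raised the control-pool median of all genes by 0.20 and 0.49.

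The summed levels of Slc2a1 and Pdk1 were lower in Tnfrsf9-positive cells of both pools, but not on each plate or under each setting. Slc2a1 stood at 21.3 against 71.9 CPM in the control pool (-1.71), where 1 of 46 positive cells and 26 of 322 others called positive, and without control plate 2 its ratio was -5.92. After thinning it was -0.90. It stood at 32.7 against 44.9 CPM in the deleted pool (-0.45, lower on 2 of 4 plates), and without deleted plate 2 the ratio was 0.094. Slc2a1 was positive in 9.38% of Tnfrsf9-positive deleted-pool cells and in 6.58% of the others, with overlapping intervals. Pdk1 stood at 98.7 against 217 CPM (-1.13) and at 84.8 against 135 CPM (-0.67), lower on 3 of 4 plates of each pool. Leaving out a control plate gave -2.10 (without plate 3) to -0.57 (without plate 1), and leaving out a deleted plate gave -1.14 (without plate 3) to -0.25 (without plate 1). With cells weighted equally the deleted-pool ratio was 0.55, and -0.84 when only cells with 100000 reads or more were used. The shares of Pdk1-positive cells were 19.6% against 24.2% and 14.1% against 17.1%, with overlapping intervals. Gapdh had ratios of -0.08 and 1.52, on 344 and 1985 reads in the positive cells, and the control ratio was -2.07 without control plate 3. With a pseudocount of 10 CPM the deleted-pool ratio was 0.87. Aldoa had 0.31 and 0.06.

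As a group the 9 measured genes showed no direction with Tnfrsf9 that both pools shared. Ratios lay above 0 for 4 and below 0 for 5 in the control pool, and for 7 and 2 in the deleted pool. In the control pool 1 was at least 2-fold higher and 2 were 2-fold lower, where 14.2% and 23.5% of all genes tested were. In the deleted pool 2 were higher and 0 lower, where 14% and 21% of all genes were. The medians were -0.08 and 0.26, beside -0.06 and -0.05 over all genes. TMM and median-of-ratios scaling raised the median of all genes by 0.20 and 0.49 in the control pool and by 0.13 and 0.30 in the deleted pool, so ratios near 0 are best read against that median. Ranked among all genes, the control ratio of Eno1 lay above 31.4% of them and that of Ldha above 44.7%, and the deleted-pool ratios above 63.9% and 74.2%.

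The other genes of the route were mixed as well. Those below were named by the size of their ratio or from a short set. Their levels are sums over the cells of a pool, and plate directions and the numbers of cells behind them are not given. In the control pool 6 of 51 measured pathway genes outside the 10 were at least 2-fold higher in Tnfrsf9-positive cells and 10 were lower, and in the deleted pool 8 and 10 of 52. Of all genes tested, 14.2% were higher and 23.5% lower in the control pool, and 14% and 21% in the deleted pool. The counts of pathway genes lie near these shares. Of the pyruvate dehydrogenase kinases, Pdk3 was higher in both, at 98.0 against 48.5 and 124 against 44.5 CPM, and Pdk2 lower in both, at 0.0557 against 17.5 and 0.117 against 32.0 CPM. Pdp1, a phosphatase that opposes these kinases, stood at 62.5 against 6.62 CPM in the control pool and at 0.254 against 20.2 CPM in the deleted pool. Its sums thus went opposite ways, a difference that was not tested and that few cells could carry. Txnip, which restrains glucose uptake, was lower in both pools, at 91.5 against 311 and 164 against 340 CPM. Myc stood at 13.6 against 108 CPM in the control pool and at 178 against 66.9 CPM in the deleted pool. Hif1a stood at 412 against 234 and 365 against 256 CPM. Pgam1, the phosphoglycerate mutase between Pgk1 and Eno1, stood at 138 against 64.0 and 72.3 against 62.0 CPM. Pfkp and Gpi1 were near even in both pools, with ratios of 0.11 and 0.11 for Pfkp and -0.10 and -0.11 for Gpi1. Among control cells Bpgm stood at 12.8 against 52.2, Arnt at 25.9 against 65.6 and Pgd, of the pentose phosphate branch, at 163 against 73.2 CPM. Among deleted-pool cells Prkaa1, a catalytic subunit of AMPK, Pfkfb4 and the pentose branch gene Rpe were lower, at 0.166 against 25.6, 0.489 against 22.3 and 10.8 against 40.5 CPM. The regulators Irf4 and Rptor were higher there, at 56.2 against 13.6 and 57.8 against 14.5 CPM. Slc2a3 had ratios of 0.58 and 0.16 and Ldhb of -0.22 and -0.13, both within 2-fold. Slc16a3 stood at 0.167 against 8.38 CPM in the control pool and lay below 5 CPM in the deleted pool.

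Cd44, an adhesion receptor that rises on antigen-experienced T cells, gave another split, with 49 positive control cells and 56 positive deleted-pool cells. The medians of genes with at least 5 reads were 1777 against 1540 and 1780 against 1506.5. Cycling markers summed to 101 against 18.6 CPM in the control pool and to 121 against 50.9 CPM in the deleted pool. In the positive cells these sums ran by plate from 1.16 to 235 CPM (control) and from 1.51 to 304 CPM (deleted). In the others they ran from 2.67 to 29.1 and from 3.09 to 116 CPM. Regulatory T cell markers summed to 86.7 against 102 and 197 against 143 CPM, with 1 of the 3 higher in each pool. Foxp3-positive cells were 2.04% against 2.19% in the control pool and 1.79% against 1.60% in the deleted pool. The part of these differences in the Cd44 ratios was not tested.

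Ldha and Aldoa were higher in Cd44-positive cells on 7 of 8 plates. Ldha stood at 1940, 1832, 2332 and 1620 CPM in the positive cells of control plates 1 to 4 and at 1574, 1180, 1214 and 1316 CPM in the others (0.55). On the deleted plates it stood at 1604, 1281, 1786 and 2491 CPM against 1355, 1523, 1428 and 1151 CPM (0.42), lower on plate 2. Of the genes tested, 3.03% were higher on all 4 control plates. The share of all genes higher on 7 of 8 plates was not computed. Without deleted plate 4 the deleted-pool ratio was 0.14. Aldoa had ratios of 0.27 and 0.55, and was positive in 67.3% of Cd44-positive control cells (52.5 to 80.1) against 52.7% of the others (47.0 to 58.3). Among deleted-pool cells it was positive in 64.3% (50.4 to 76.6) against 38.1% (32.7 to 43.8), and its plate 3 went the other way. Thinned over both pools, Aldoa was positive in 68.0% of Cd44-positive and 46.4% of other cells.

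Pdk1 was lower in Cd44-positive cells on 7 of 8 plates. In the deleted pool it stood at 81.3, 1.04, 0.502 and 9.16 CPM in the positive cells of plates 1 to 4 and at 174, 165, 108 and 135 CPM in the others, a ratio of -2.63. The shares of Pdk1-positive cells were 7.14% (1.98 to 17.3) and 18.3% (14.1 to 23.0). In the control pool it stood at 174, 6.55, 32.3 and 275 CPM against 214, 254, 184 and 197 CPM (-0.61), higher on plate 4. Of the genes tested, 14.3% were lower on all 4 deleted plates, and the share lower on 7 of 8 plates was not computed. When every cell had the same weight the deleted-pool ratio was 0.27, which goes back to 1 well of deleted plate 1 with 71129 reads. It held 608 Pdk1 reads, or 8548 CPM, and was called Cd44-positive on 1 Cd44 read. With cells weighted equally but only those with 100000 reads or more, the ratio was -2.31. The ratio was also near 0 under other ways of calling Cd44, at -0.23 with Cd44-positive cells at 1 CPM and -0.056 when cells were thinned to 100000 reads and called again, which left out that well and gave 93 positive cells. Without deleted plate 1 it was -4.87. The only other well under 100000 reads, on deleted plate 4, had 9905 reads, inside the range of the wells without a cell. It too was called positive for both split genes, on 2 and 5 reads. Both wells stay in the deleted-pool shares of positive cells given for either split, except after thinning.

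The Gapdh row went opposite ways with Cd44, higher on the 4 control plates (1.21) and lower on the 4 deleted plates (-2.71), where 0.579% of genes had such a pattern. It rested on 852 reads in Cd44-positive control cells and 58 in Cd44-positive deleted-pool cells, and 0 of those 56 cells called positive, which by a floor of 3 counts allows up to 5.36% of them to be called positive (3 of 56). This limits calls in the row, not cells that use the gene. The control ratio was 0.94 without control plate 2, and with a pseudocount of 10 CPM the deleted-pool ratio was -0.91. Eno1 had ratios of -0.33 and -0.37 and was lower on 2 of 4 control plates and all 4 deleted plates, where 14.3% of genes were. With median-of-ratios scaling its deleted-pool ratio was 0.00. Pkm had 0.15 and 0.12, Pgk1 0.46 and -0.18, Tpi1 1.21 and -0.12, and Slc2a1 0.34 and -0.63. Without control plate 3 the Slc2a1 control ratio was -0.75 and that of Tpi1 was 0.39. The Tpi1 control ratio was 0.50 without the highest cell of each group and 0.19 after thinning. Without deleted plate 1 the Slc2a1 deleted-pool ratio was 0.028.

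In the control pool 2 of the 9 measured genes, Gapdh and Tpi1, were at least 2-fold higher in Cd44-positive cells and 0 lower, where 13.5% and 21.2% of all genes were. In the deleted pool 0 were higher and 2, Gapdh and Pdk1, were lower, where 13.8% and 20.4% of all genes were. The medians were 0.34 and -0.18, beside -0.06 and -0.05 over all genes, and scaling raised the median of all genes by 0.15 to 0.38. Of the other pathway genes, 6 of 50 were 2-fold higher and 10 lower in the control pool, and 6 and 8 of 51 in the deleted pool. As for Tnfrsf9, the levels of those named below are sums over cells, without plate directions or numbers of cells. Pfkp, a phosphofructokinase, stood at 531 against 241 CPM in the deleted pool and at 339 against 312 CPM in the control pool. Pdk2 was low in Cd44-positive cells of both pools, at 0.0893 against 17.7 and 0.0951 against 30.8 CPM, while Pdk3 stood at 28.9 against 58.8 and 64.0 against 58.7 CPM. The sums of Rptor, Irf4 and Egln1, an oxygen sensor that marks HIF-1 alpha for breakdown, went opposite ways in the pools. They stood at 3.73 against 20.8, 9.47 against 22.2 and 8.41 against 23.9 CPM in the control pool and at 75.0 against 13.1, 52.7 against 15.96 and 33.3 against 12.8 CPM in the deleted pool, and the difference between pools was not tested. Among control cells Pdp1, Pfkfb3 and Bpgm were higher, at 44.2 against 8.78, 48.4 against 17.5 and 95.05 against 39.7 CPM, and Arrdc3 and Dlat lower, at 0.281 against 21.9 and 7.09 against 30.7 CPM. Among deleted-pool cells Pdpr, Dld and Pdhx, all of the pyruvate dehydrogenase system, were lower, at 0.416 against 21.1, 73.4 against 174 and 11.3 against 27.4 CPM. Hif1a stood at 339 against 244 and 391 against 255 CPM and Myc at 130 against 91.0 and 64.7 against 92.2 CPM. Gpi1, Pgam1, Slc2a3 and Ldhb stayed within 2-fold in both pools, and Slc16a3 stood at 15.3 against 6.09 CPM in the control pool and below 5 CPM in the deleted pool.

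**Figure D5:**
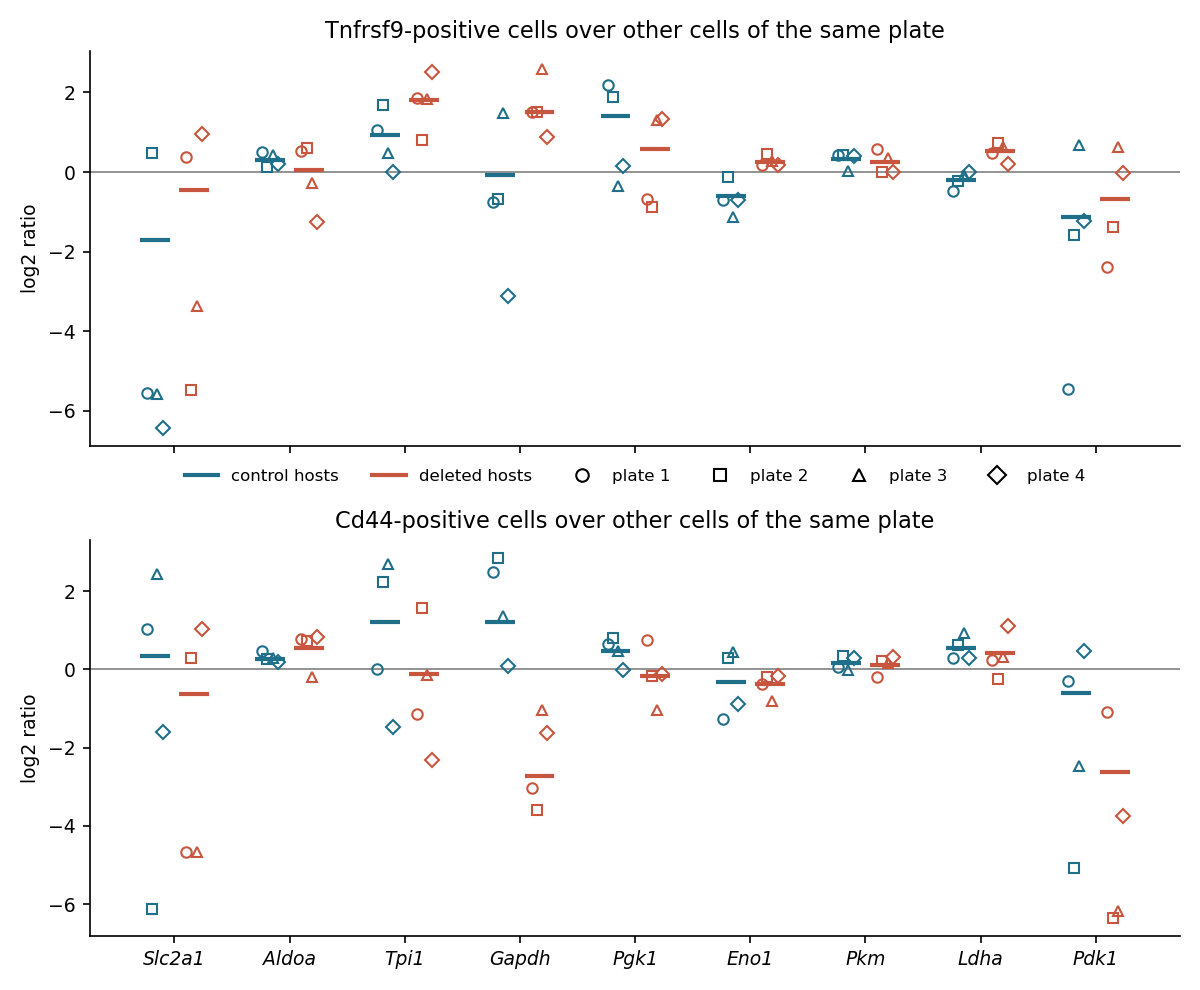
Log2 ratio of CPM + 1 in Tnfrsf9-positive (top) or Cd44-positive cells (bottom) over the other cells of the same plate, for the 9 genes at 5 CPM or more. Symbols are plates and bars the pool ratios. Tpi1 lies at or above 0 on all 8 plates at the top, Eno1 is below 0 in the control pool and above it in the deleted pool, and the rarer genes Slc2a1, Gapdh and Pdk1 spread most.

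The promoters did not sort the genes by level. In the 300 bases around the start of each gene (250 before and 50 after, RefSeq for GRCm38.p6), ACGTG, the core of HIF-1 sites, was found on either strand in 5 of the 10 windows, beside 19.7% of 27025 windows of that length. The 5 were Ldha, Pgk1, Slc2a1, Hk2 and Gapdh, which hold the highest and the lowest levels of the group. CACGTG, which contains it, was found for Ldha alone, beside 7.24% of windows, and GGGCGG in 7 of 10, beside 35.9%. A match describes the letters and shows no binding.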

How the data were processed

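The values the authors deposited are whole-number counts of reads for each gene in each well of 8 plates, not normalized. Per the submitters' processing notes, featureCounts 2.0.1 and the build mm10 were used. Which aligner and annotation were used, whether strand was counted and how multiply mapped reads were treated is not given in the sources used here. No molecular identifiers are named in the labels' protocols, so PCR copies count as reads and intervals cover counting error only. Each plate had 92 cell wells and 4 control wells. All cell wells entered the main values. Doublets were not called, since cells were sorted into separate wells. Counts were summed per plate and pool with Python 3.11.15, numpy 2.4.6, pandas 2.3.3 and scipy 1.17.1 and scaled to 1000000 reads in genes. Ratios used a pseudocount of 1 CPM, and a gene was measured at 5 CPM in either group. TMM factors came from edgeR 4.0.16 in R 4.3.3 and served as an alternative scaling only. No count model was fitted, because each group was 1 pooled sample. Lengths and copies came from GENCODE M21 transcripts. Calculations were tested on simulated data. All 10 genes are named. Other pathway genes are named at 20 CPM and 2-fold (up to 8 a comparison by size), or from a short set, and otherwise only beside those or behind counts of 5 or fewer. The genes, lists and settings were chosen with earlier results of these data known.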

Additional observations from a re-analysis of the deposited data

Results flagged for a closer look

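In 60 groups of 4 plates, the highest or lowest plate was tested for standing apart by Dixon's criterion, and 7 did. Chance alone flags about 1 in 20 groups of independent, normally spread values. These groups share cells and rest on sparse counts, so the 7 flags cannot be weighed against that rate. Among levels, Pkm on deleted plate 4 (1038 CPM) lay below the other deleted plates (1252 to 1279), and Hk2 on deleted plate 2 (3.47 CPM) lay above the others, which were at 0.0556 to 0.0799. Among Tnfrsf9 ratios, Pkm on control plate 3 (0.031) lay below the others (0.41 to 0.43), Hk2 on deleted plate 2 (4.13) above them (-0.14 to 0.01) and Slc2a1 on control plate 2 (0.49) above them (-6.44 to -5.55). Among Cd44 ratios, Aldoa on deleted plate 3 (-0.19, others 0.72 to 0.84) and Hk2 on deleted plate 2 (-2.32) lay below the others. All 3 Hk2 values come from the cell that held 91.3% of the Hk2 reads of its pool.

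In 3 cases every plate of 1 pool moved one way and every plate of the other the opposite way, and the difference itself was not tested. The difference of the log2 ratios, control minus deleted pool, was -0.87 for Eno1 with Tnfrsf9, -0.73 for Ldha with Tnfrsf9 and 3.92 for Gapdh with Cd44.

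The mBM10 and mBM100 control wells, which entered no comparison, held the 10 genes at a summed 5140 and 5645 CPM, above the 4279 to 4995 CPM of the plates of T cells.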

How the results depend on the processing

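Of the medians and counts over the genes, 154 values under the alternatives stayed within the plate spread or 1.5 times the count and 32 did not, beside those that leave out a plate. The ratio between hosts kept a median near 0.06 and no 2-fold gene under each of them. For Tnfrsf9 in the control pool, the count of genes 2-fold higher was 1 and became 2 with TMM scaling, median-of-ratios scaling, positives at 50 CPM, without Foxp3-positive cells and without cycling cells, and 0 after thinning. The count 2-fold lower was 2 and became 1 with both scalings and with equally weighted cells (with or without wells under 100000 reads), and 0 after thinning, and the median became 0.34 with median-of-ratios scaling. For Tnfrsf9 in the deleted pool, the median became 0.57 with median-of-ratios scaling and 0.48 with equally weighted cells, and the count higher became 1 without the highest cell of each group and with a pseudocount of 10 CPM. For Cd44 in the control pool, the median became 0.51 with TMM scaling, 0.72 with median-of-ratios scaling and 0.15 without the highest cells. The count higher became 1 with equally weighted cells (with or without wells under 100000 reads), without the highest cells, with a pseudocount of 10 CPM and after thinning, and 0 with positives at 1 CPM, and the count lower became 1 without the highest cells. For Cd44 in the deleted pool, the median became 0.19 with median-of-ratios scaling, and the count lower became 1 with equally weighted cells and with a pseudocount of 10 CPM. The mean of positive genes per cell became 3.40 in the control pool with positives at 1 CPM, and 3.44 and 3.34 in the control and deleted pools after thinning. After thinning to 100000 reads 1 read equals the cut of 10 CPM, which makes the call looser for rare genes. The part of this in the moved values was not tested. Thinning also changed the split: 88 control and 93 deleted-pool cells were then Cd44-positive, beside 49 and 56 in the main call.

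Leaving out a plate gave medians of 0.01 to 0.13 between hosts with 0 to 1 gene higher and 0 lower. For Tnfrsf9 the medians ran from -0.073 to 0.31 (control, 0 to 2 higher and 1 to 2 lower) and from 0.24 to 0.42 (deleted, 2 to 3 higher and 0 to 1 lower). For Cd44 they ran from 0.20 to 0.63 (control, 0 to 2 higher and 0 to 1 lower) and from -0.43 to 0.03 (deleted, 0 higher and 2 to 3 lower). Positive genes per cell ran from 3.25 to 3.33 and from 3.07 to 3.20. Signs of called ratios turned for Hk2 with Tnfrsf9 in the deleted pool when 1 plate was left out (from -0.068 without deleted plate 2 to 2.76) and for Pdk1 with Cd44 in the deleted pool with equally weighted cells (0.27), both of which rest on 1 well.

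No paired analysis was possible because each pool was 1 sample and the labels tie no plate of one pool to a plate of the other. The settings without Foxp3-positive cells, without cycling cells, and with equal weights for wells of 100000 reads or more were added after seeing the data. Hk2 and Gapdh had the fewest reads, 187 and 2904 in the control pool, and counting error weighs most on them.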
